A study of Mus musculus with 4 samples.

Results

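The genes described here carry the cyclic AMP signal below the luteinizing hormone receptor: G protein alpha subunits, adenylyl cyclases, phosphodiesterases, subunits of protein kinase A, CREB transcription factors with their coactivators, and the Epac exchange factors. They were chosen by name from a list of 41 genes. A member entered where a probe set carried its symbol and no other, and where a gene had several such probe sets the one with the highest mean was used. By that rule 38 of the 41 were measured, among 19938 genes in all. The probe sets of Gnas and of Prkaca each name a second gene (Gnasas1 and Samd1) and were left out by the rule, and Rapgef4 is not analysed here. The measured members therefore do not include Gnas, the main stimulatory G protein subunit, or Prkaca, a main catalytic subunit of protein kinase A.

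The samples were testes of male mice, 2 labelled Lhcgr KO and 2 labelled control WT. Mice of both genotypes had received busulfan, a drug that kills dividing germ cells, at 44 mg/kg, and the tissue was taken 4 weeks later. Total RNA was read on 1-colour Affymetrix whole-transcript arrays, and values are log2 of the deposited intensity. The labels do not state the strain, the age or how the Lhcgr allele was made. They also leave unstated whether replicates are different animals, and p-values then cover only the spread among these 4 samples, possibly a technical one. Precision is limited by there being 2 arrays in each group.

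When luteinizing hormone binds its receptor on Leydig cells, the stimulatory G protein activates adenylyl cyclase, and the cyclic AMP formed activates protein kinase A and the Epac proteins. Protein kinase A phosphorylates CREB factors and proteins of cholesterol transport, which raises steroid hormone synthesis. Phosphodiesterases break cyclic AMP down and so limit the strength, the duration and the place of the signal. Other testis cells use the same machinery below other receptors, for example Sertoli cells below the receptor for follicle-stimulating hormone.

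Across all arrays the median intensity ran from 198 to 215 units, and the median change of all genes was 0.07 on the log2 scale. Lhcgr itself is not analysed here, and the genotype labels could not be checked on it. The tissue label was checked on 12 Sertoli cell markers, whose summed intensity lay between 30815 and 32474 units on the 4 arrays, and Cldn11, a tight junction gene of Sertoli cells, measured between 12.33 and 12.41. Of these markers 10 did not pass the test described below, Amh, the anti-Müllerian hormone, rose 1.74-fold (limma adjusted p = 0.0398) and Trf, transferrin, fell, its wild-type level being 4.90-fold that of the knockout (adjusted p = 0.00746). Adult Leydig cell markers were lower in the knockout: 7 of 11 fell, and their summed intensity was 5355 and 4154 units in the knockout against 29036 and 16313 in wild type. Of 12 macrophage markers 5 fell, with sums of 5082 and 5327 units against 8844 and 11051. Of 8 markers of the epididymis, 3 (Adam7, Defb20 and Lcn5) were high on wild-type replicate 2 alone, 2 lay within the range of the other arrays there and 3 (Lcn9, Rnase10 and Cst11) were lowest there. Their summed intensity was 3547 units on that array, of which Adam7 gave 2101, against 712 to 897 on the other arrays. No marker was at 0, because the lowest deposited intensity is 16 units.

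Among the phosphodiesterases 3 genes passed the test, and no member of another role did. Pde3b and Pde8b rose in the knockout, by 2.81-fold and 2.25-fold, and Pde10a fell to 0.360 of its wild-type level. In all, 2 of the 38 members rose, 1 fell and 35 did not pass (limma on log2 intensity, Benjamini-Hochberg adjusted p under 0.05 over 19938 genes). The background share was 3.1% of all genes called in either direction, 0.963% called higher and 2.14% called lower, so the 3 calls among 38 are a small number read against a low background. After quantile normalization 4 members were called higher and 1 lower, and without either knockout array none passed. The members had a median log2 fold change of 0.18 against 0.07 for all genes, and 29 of 38 had a positive one against 60.6% of all genes. After quantile normalization the medians were 0.12 and 0.02, and 26 of 38 members were positive. The members and lists were picked with earlier results of these data known, so the counts describe them and test nothing about the group.

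The starts of the members on which the results turn were read from RefSeq promoter sequences on GRCm38.p6. They are shown because the genes that moved may be compared for the cyclic AMP response element (CRE), the site that CREB factors bind. Of the 38 members, 30 had at least one start in the table, with 66 starts in all, and Pde3b had none. Each window covers the 250 bases before a start, written 5′ to 3′ on the gene's strand, with matches to TGACG or its reverse complement CGTCA in capitals. The windows of Pde8b, of Pde10a and of Pde7b are at chr13:95250337-95250586 and chr13:95223093-95223342 (minus strand), chr17:8801495-8801744 and chr17:8849735-8849984 (plus strand) and chr10:20548329-20548578 (minus strand). Pde8b has 5 windows around its 2 groups of nearby starts, and the most upstream of each group is shown. Pde4b has 4, of which the one that holds a match is shown, chr4:102421305-102421554 (plus strand).
Pde8b, first start: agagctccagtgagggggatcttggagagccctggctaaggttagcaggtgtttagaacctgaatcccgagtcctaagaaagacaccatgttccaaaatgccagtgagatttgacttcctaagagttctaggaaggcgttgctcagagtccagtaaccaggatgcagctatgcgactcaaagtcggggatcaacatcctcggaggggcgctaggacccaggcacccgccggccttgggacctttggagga
Pde8b, second start: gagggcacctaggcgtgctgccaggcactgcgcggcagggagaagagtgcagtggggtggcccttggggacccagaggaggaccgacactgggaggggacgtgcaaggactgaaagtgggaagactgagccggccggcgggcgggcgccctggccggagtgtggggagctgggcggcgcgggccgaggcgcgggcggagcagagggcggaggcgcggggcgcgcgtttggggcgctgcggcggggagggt
Pde10a, first start: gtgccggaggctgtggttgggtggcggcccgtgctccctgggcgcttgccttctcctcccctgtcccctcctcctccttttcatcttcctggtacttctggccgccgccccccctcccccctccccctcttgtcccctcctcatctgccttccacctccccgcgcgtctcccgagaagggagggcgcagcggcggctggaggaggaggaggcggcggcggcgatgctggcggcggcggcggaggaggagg
Pde10a, second start: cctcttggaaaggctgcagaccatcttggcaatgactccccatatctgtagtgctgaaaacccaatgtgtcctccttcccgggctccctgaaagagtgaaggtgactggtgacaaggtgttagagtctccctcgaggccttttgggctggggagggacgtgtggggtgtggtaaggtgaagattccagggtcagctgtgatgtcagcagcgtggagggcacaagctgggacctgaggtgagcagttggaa
Pde7b: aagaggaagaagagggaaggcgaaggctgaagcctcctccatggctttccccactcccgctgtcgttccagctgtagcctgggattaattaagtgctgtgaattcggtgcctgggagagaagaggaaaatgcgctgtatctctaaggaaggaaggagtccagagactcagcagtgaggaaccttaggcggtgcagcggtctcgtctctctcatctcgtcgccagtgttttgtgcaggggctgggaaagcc
Pde4b: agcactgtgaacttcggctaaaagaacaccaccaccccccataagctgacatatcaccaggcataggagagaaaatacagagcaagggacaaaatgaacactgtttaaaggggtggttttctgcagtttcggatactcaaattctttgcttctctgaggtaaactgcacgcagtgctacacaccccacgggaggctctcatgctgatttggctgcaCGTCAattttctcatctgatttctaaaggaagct

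None of the windows of Pde8b, Pde10a and Pde7b held TGACG on either strand, those not shown included. The window of Pde4b shown held 1 match, and its other 3 windows held none. Over all 32851 windows of the same length, 17.8% held the core TGACG and 1.55% the full element TGACGTCA, which contains it. Among the members, 11 of 30 genes had this core in at least one window, against 19.8% of the 27025 genes in the table. Members have more windows per gene than the table as a whole, which raises such a share. The full element was found in 1 of the 30 members, against 1.77% of all genes in the table. That member was Prkar1a, the type I alpha regulatory subunit of protein kinase A. It is shown with 10 bases on either side and the element in capitals, at chr11:109650890-109650917 (plus strand).
Prkar1a: cgaggcgcatTGACGTCAgcagccgaac

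A site of the SF-1 type, CAAGGTCA on either strand, lay in a window of 1 of the 30 members, Adcy1, against 1.51% of all genes in the table. A match describes these letters only, and a window without one says nothing of the factor.

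Pde3b (probe set 10556528) encodes a phosphodiesterase that degrades cyclic AMP and is inhibited by cyclic GMP. It measured 9.32 and 9.43 on the knockout arrays and 7.87 and 7.89 on the wild-type arrays. Both knockout arrays lay above both wild-type arrays, with a gap of 1.43 between the groups. The means were 9.38 ± 0.07 (SD, n = 2) in the knockout and 7.88 ± 0.01 in wild type. The log2 fold change was 1.49 ± 0.11 (SE; limma adjusted p = 0.00319), with a 95% confidence interval of 2.34 to 3.39 for the fold. Without knockout replicate 1 or 2 the adjusted p was 0.0747 or 0.0730. It was the member with the lowest p-value, which ranked 30 among all genes. Its relative Pde3a measured 6.92 and 6.96 in the knockout and 6.79 and 6.77 in wild type, which gives a difference of 0.16 ± 0.11 on the log2 scale (adjusted p = 0.379). Whether the change of Pde3b differed from that of Pde3a was not tested.

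Pde8b (probe set 10411171) encodes a cyclic AMP-specific enzyme of high affinity, known together with Pde8a from steroid-forming cells. It measured 9.27 and 9.45 in the knockout and 8.45 and 7.94 in wild type. The groups did not overlap, and the wild-type arrays differed from each other by 0.50. Its log2 fold change was 1.17 ± 0.18 (SE, limma adjusted p = 0.0261), with a fold between 1.66 and 3.03 at 95% confidence. Without knockout replicate 1 or 2 the adjusted p was 0.179 or 0.240. Pde8a measured 9.34 and 9.46 in the knockout and 9.25 and 9.42 in wild type, so its groups overlapped. The log2 fold change of Pde8a was 0.06 ± 0.12 (adjusted p = 0.756), with an interval of -0.23 to 0.36. The intervals of both genes do not overlap, but the difference between them was not tested.

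Pde10a (probe set 10441680), an enzyme that hydrolyses both cyclic AMP and cyclic GMP, was the one member that fell. It measured 8.42 and 8.45 on the knockout arrays and 9.66 and 10.16 on the wild-type arrays. The knockout arrays lay close together and below both wild-type arrays, with a gap of 1.21. The log2 fold change was -1.47 ± 0.17 (SE, limma adjusted p = 0.0110), and the wild-type level was 2.78-fold that of the knockout (95% confidence interval 2.09 to 3.70). Its adjusted p was 0.158 or 0.156 when knockout replicate 1 or 2 was left out. Leydig and macrophage markers fell with it, as given above, and their part in the result was not tested. In bulk tissue, fewer cells of a type and less RNA per cell cannot be told apart. The same limit holds for the rises of Pde3b and Pde8b, where a changed mix of cells was not tested either. None of 6 peritubular myoid, 7 endothelial and 4 adipocyte markers passed, with median log2 fold changes of -0.28, -0.02 and 0.28. Within the wild-type pair, Pde10a was higher on replicate 2, the array with the higher epididymal marker sum. There the macrophage markers were higher (median 9.40 against 9.12) and the Leydig markers lower (10.01 against 11.14). Whether any of these differences bears on Pde10a was not tested.

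**Figure D1:**
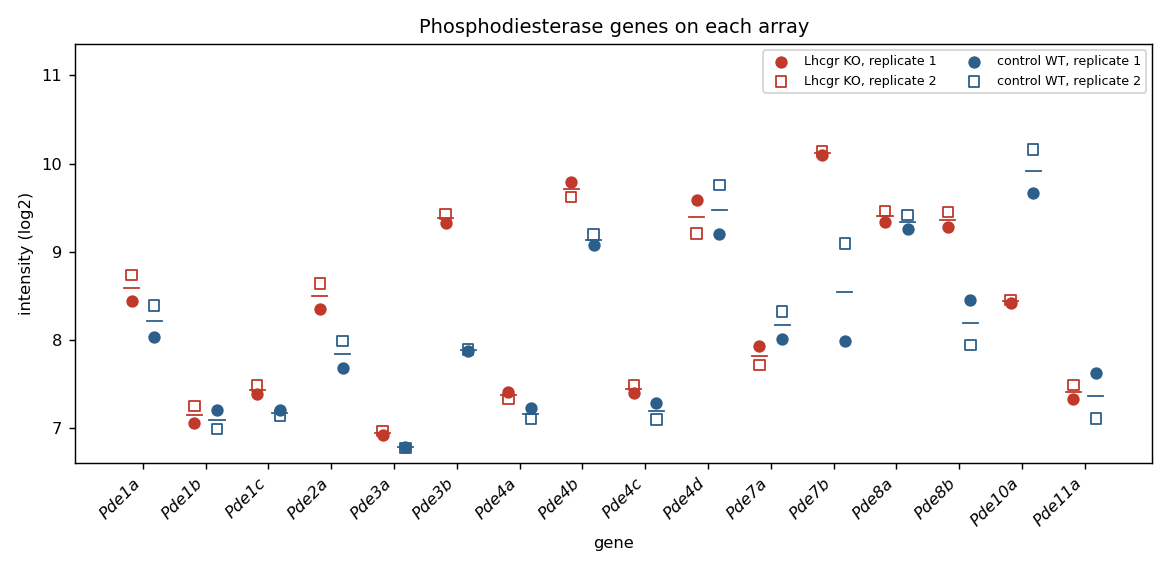
Log2 intensity (vertical axis) of the 16 phosphodiesterase genes (horizontal axis) on each array, knockout in red and wild type in blue, with filled circles for replicate 1, open squares for replicate 2 and short lines at group means. The 2 groups of Pde3b, Pde8b and Pde10a are apart, and the 2 wild-type arrays of Pde7b differ by 1.11.

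Of the 16 phosphodiesterases, 2 rose, 1 fell and 13 did not pass the test. On 10 of them both knockout arrays lay above both wild-type arrays, against 36.8% of all genes, and on 2 both lay below, against 22.4% of all genes. Their median log2 fold change was 0.23, and 0.14 after quantile normalization.

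Pde7b, which is specific for cyclic AMP, did not pass the test, although its log2 fold change, at 1.58 ± 0.32, exceeded that of every other member in size (limma adjusted p = 0.0595). It measured 10.09 and 10.13 in the knockout, and 7.98 and 9.09 in wild type. Both knockout arrays were above both wild-type arrays, but the wild-type arrays differed from each other by 1.11. Without wild-type replicate 1 the log2 fold change was 1.02, and without replicate 2 it was 2.13. Wild-type replicate 1, the array with the higher Leydig marker sum, had the lower Pde7b value, and replicate 2 was high for 3 of the 8 epididymal markers. Their part in the spread of Pde7b was not tested. Pde7a, its relative, pointed the other way, at 7.92 and 7.71 in the knockout and 8.01 and 8.32 in wild type (log2 fold change -0.35 ± 0.15, adjusted p = 0.230).

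Pde4b and Pde2a had smaller positive values that did not pass the test but had an adjusted p under 0.1, as did 6.24% of all genes. Pde4b, a cyclic AMP-specific enzyme, measured 9.79 and 9.62 in the knockout and 9.07 and 9.20 in wild type (log2 fold change 0.57 ± 0.12, limma adjusted p = 0.0674). Pde2a, an enzyme that cyclic GMP stimulates, measured 8.35 and 8.64 in the knockout and 7.68 and 7.99 in wild type (0.66 ± 0.16, adjusted p = 0.0871). For both genes the groups did not overlap. The other genes of the Pde4 subfamily did not pass: Pde4a had a log2 fold change of 0.21 ± 0.11, Pde4c one of 0.25 ± 0.12 and Pde4d one of -0.08 ± 0.21. Pde4d has 3 probe sets, whose changes were -0.08, 0.32 and -0.11, and it measured 9.58 and 9.20 in the knockout and 9.20 and 9.76 in wild type, with overlapping groups. The calmodulin-dependent enzymes Pde1a, Pde1b and Pde1c had log2 fold changes of 0.38, 0.06 and 0.26, and the dual-specificity enzyme Pde11a one of 0.04.

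**Figure D2:**
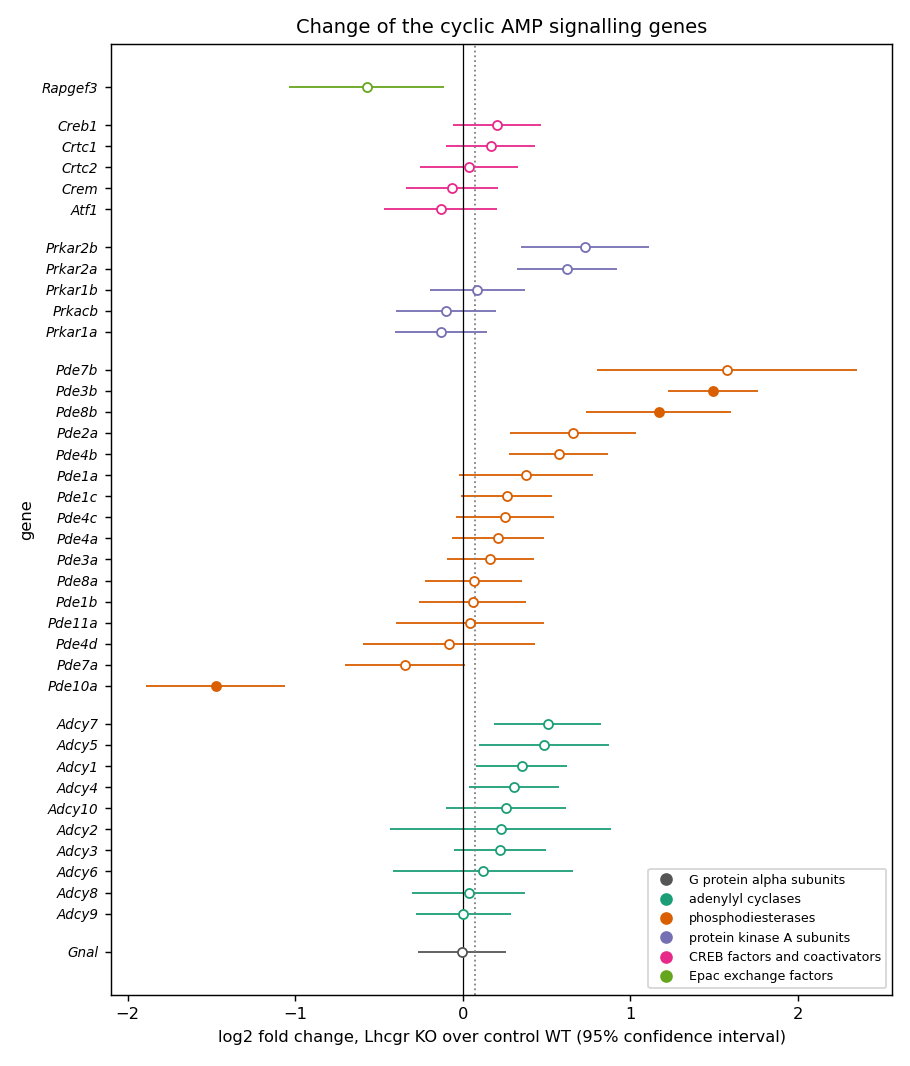
Log2 fold change of knockout over wild type (horizontal axis, points) with its 95% confidence interval (lines) for the 38 measured members, in order of size within each role (vertical axis and colours). Filled points mark the 3 genes past the test, Pde3b, Pde8b and Pde10a; the dotted line is the median of all genes, 0.07.

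Of 10 measured adenylyl cyclases, which form cyclic AMP from ATP, none passed the test (limma), and 4 had an unadjusted p under 0.05, as did 22.7% of all genes. All 10 log2 fold changes were positive, from 0.0034 for Adcy9 to 0.51 for Adcy7, with a median of 0.24. With arrays centred on their medians Adcy9 was negative, and after quantile normalization Adcy8 was, so that 9 of the 10 were positive in each case. On 5 of them both knockout arrays lay above both wild-type arrays, against a background of 36.8%, and on none below.

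Adcy7, an isoform that the beta-gamma subunits of G proteins stimulate, had the lowest p-value of the cyclases. It measured 9.34 and 9.17 in the knockout and 8.86 and 8.64 in wild type (log2 fold change 0.51 ± 0.13, limma adjusted p = 0.107). The groups of Adcy7 were separated by 0.31, more than the difference of 0.17 between its knockout arrays and of 0.23 between its wild-type arrays. Adcy1, a calmodulin-stimulated isoform best known from neurons, measured 7.61 and 7.70 in the knockout and 7.27 and 7.34 in wild type (0.35 ± 0.11, adjusted p = 0.152). Adcy5 had a log2 fold change of 0.48 ± 0.16 and Adcy4 one of 0.30 ± 0.11. The other cyclases, Adcy2, Adcy3, Adcy6, Adcy8 and Adcy10, had values between 0.03 and 0.26, and none of them had an unadjusted p under 0.05. In Adcy2 and Adcy6 the wild-type arrays lay on either side of both knockout arrays, at 7.94 and 8.86 for Adcy2 and 7.53 and 8.24 for Adcy6. Adcy9, an isoform that responds little to forskolin, measured 9.28 and 9.23 in the knockout and 9.34 and 9.17 in wild type, and its change had an interval of -0.28 to 0.29. Adcy10, the soluble cyclase of sperm, measured 6.35 and 6.62 in the knockout and 6.36 and 6.10 in wild type. Gnal, the stimulatory G protein subunit of olfactory neurons, measured between 6.13 and 6.19 on all 4 arrays (log2 fold change -0.0076 ± 0.11, adjusted p = 0.971). Values this low may lie near the arrays' background, which was not measured.

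Among the 5 measured subunits of protein kinase A, none passed the test (limma) and 2 had an unadjusted p under 0.05, against 22.7% of all genes. Both were type II regulatory subunits, which hold the catalytic subunits inactive until cyclic AMP binds and which attach to anchoring proteins. Prkar2a measured 9.88 and 9.85 in the knockout and 9.13 and 9.35 in wild type. Its log2 fold change was 0.62 ± 0.12 (SE, limma adjusted p = 0.0555), just short of the threshold. Prkar2b measured 10.99 and 11.05 in the knockout and 10.08 and 10.51 in wild type (0.73 ± 0.16, adjusted p = 0.0693). In both genes the knockout arrays lay close together and above both wild-type arrays, with gaps of 0.49. Both knockout arrays lay above both wild-type arrays in 36.8% of all genes.

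The type I subunits and the measured catalytic subunit had smaller differences. Prkar1a, whose window holds the full CRE shown above, measured 10.74 and 10.84 in the knockout and 10.88 and 10.97 in wild type. Its log2 fold change was -0.13 ± 0.11 (limma adjusted p = 0.489), with an interval of -0.40 to 0.14. Prkar1b had one of 0.09 ± 0.12, and the catalytic subunit Prkacb one of -0.10 ± 0.13 (adjusted p = 0.634). Whether the type II subunits changed more than the type I subunits was not tested.

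**Figure D3:**
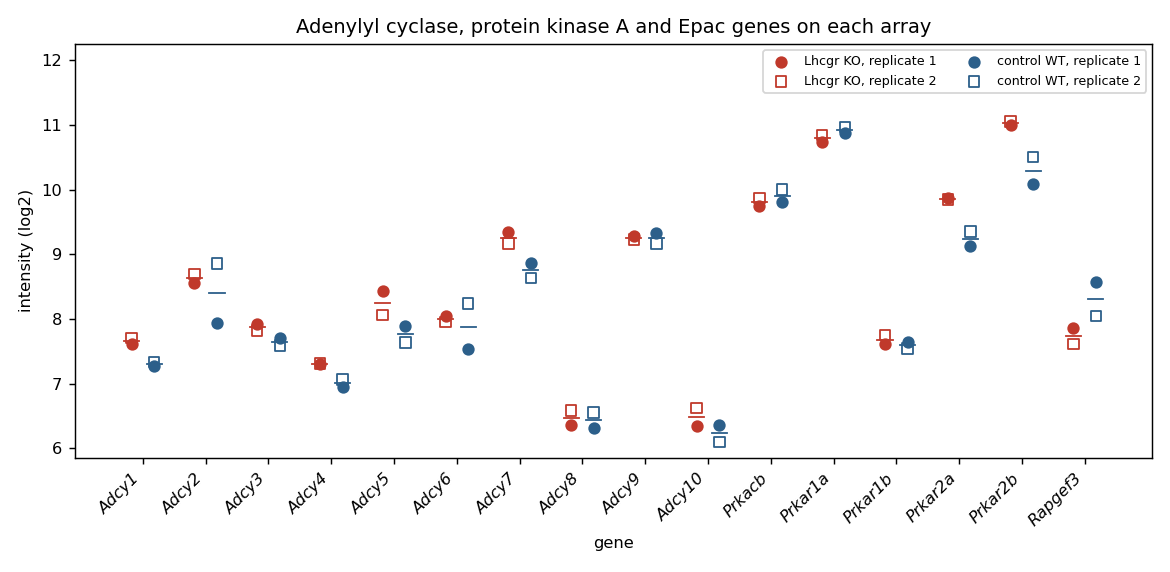
Log2 intensity (vertical axis) of the adenylyl cyclase, protein kinase A and Epac genes (horizontal axis) on each array, drawn as in the plot of phosphodiesterases. The knockout arrays of Prkar2a and Prkar2b lie above both wild-type arrays, those of Rapgef3 lie below, and none of these genes passed the test.

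Of the 5 CREB factors and coactivators, none passed the test (limma) and none had an unadjusted p under 0.05. Creb1, a CREB factor that protein kinase A phosphorylates, measured 10.82 and 10.73 in the knockout and 10.57 on both wild-type arrays (log2 fold change 0.20 ± 0.11, limma adjusted p = 0.305). Crtc1, a coactivator that enters the nucleus when cyclic AMP rises, measured 9.61 and 9.67 in the knockout and 9.50 and 9.46 in wild type (0.16 ± 0.11, adjusted p = 0.377). Crem, Atf1 and Crtc2 had log2 fold changes of -0.07, -0.13 and 0.04 with overlapping groups. The intervals of these 5 genes together reach from -0.47 to 0.47, so changes beyond that size lie outside the interval of each. One probe set per gene cannot separate the activating and repressing transcripts that Crem is known to give.

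Rapgef3, which encodes Epac1, a cyclic AMP-activated exchange factor for Rap proteins, was lower on both knockout arrays. It measured 7.86 and 7.62 in the knockout and 8.58 and 8.04 in wild type (log2 fold change -0.57 ± 0.19, limma adjusted p = 0.164). The groups did not overlap, but wild-type replicate 2 lay 0.18 above the nearer knockout array and 0.53 below the other wild-type array. Without wild-type replicate 1 the log2 fold change was -0.31. Without replicate 2 it was -0.84. In that fit the spread of the knockout pair is drawn toward a value shared by all genes. The lone wild-type array is assumed to vary by the same amount.

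The 2 wild-type arrays differed by more than 0.5 in 7 of the 38 members, and the 2 knockout arrays in none. The largest difference was 1.11 in the wild-type pair and 0.38 in the knockout pair. Over all genes the median difference was 0.13 in the wild-type pair and 0.14 in the knockout pair, and over the members it was 0.19 and 0.12. The share of all genes that differed by more than 0.5 was not counted, so the 7 members have no background beside them. The members with wild-type differences above 0.5 were Adcy2, Adcy6, Pde4d and Pde7b, higher on replicate 2, and Pde8b, Pde11a and Rapgef3, higher on replicate 1. The Leydig markers and 3 of the 8 epididymal markers also differed between the wild-type arrays, as given above. The 12 spermatid markers summed to 2487 units on wild-type replicate 1 and 1350 on replicate 2, against 1464 and 1579 in the knockout. Smcp and Prm2 differed most, at 9.06 and 8.95 on wild-type replicate 1 and 6.11 and 7.40 on replicate 2. The other spermatid markers were also higher on wild-type replicate 1, by less. The part of all these markers in the 7 members was not tested.

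**Figure D4:**
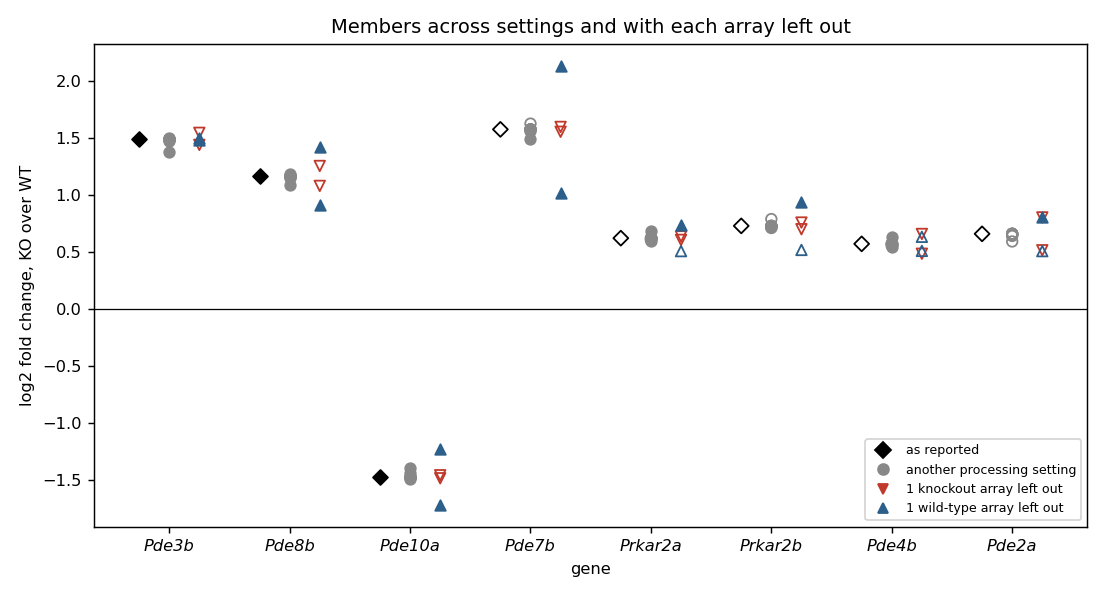
Log2 fold change (vertical axis) of the 8 members with an adjusted p under 0.1 (horizontal axis), as reported (diamonds), under other processing settings (grey circles) and with 1 knockout array (red triangles) or 1 wild-type array (blue triangles) left out. Filled symbols have an adjusted p under 0.05; without wild-type replicate 1 or 2 the change of Pde7b was 1.02 or 2.13.

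When either knockout array was left out, no member passed the test (limma). Few genes of any kind passed in those fits, in which the spread of the wild-type pair is drawn toward a value shared by all genes. The changes themselves stayed close to the full values: Pde3b had 1.55 and 1.44, Pde8b 1.25 and 1.08, and Pde10a -1.46 and -1.49. When a wild-type array was left out, the spread was that of the knockout pair, again drawn toward the value shared by all genes. The lone wild-type array was assumed to vary by the same amount. Without wild-type replicate 1 the adjusted p was under 0.05 in 4 members, Pde3b, Pde8b, Pde10a and Pde7b, and in 5.21% of all genes. Without wild-type replicate 2 it was in 8, these 4 with Pde2a, Prkar2a, Prkar2b and Rapgef3, and in 3.25% of all genes.

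The wider pathway was described with 9 lists of other genes, of which 103 different genes were measured. Of these 1 rose, 4 fell and 98 did not pass the test, against the background of 3.1% called in either direction. The call that concerned the signal's machinery was Ezr, ezrin, a membrane-to-actin linker that also anchors protein kinase A. It measured 7.70 and 7.93 in the knockout and 9.25 and 9.39 in wild type (log2 difference -1.50 ± 0.13, limma adjusted p = 0.00475). It was the one call among 17 A-kinase anchoring proteins, whose median change was 0.02. None of 22 other G protein subunits and chaperones passed (limma, with 4 under an unadjusted p of 0.05 and a median of 0.03). Of all genes 22.7% were under that p. None of 6 genes of receptor desensitisation passed either, with 1 under that p and a median of 0.02. The same holds for the 3 protein kinase A inhibitors, of which none was under that p. None of the 8 other phosphodiesterases passed, with 1 under it, and none of the 12 other cyclic nucleotide binding proteins, with 3 under it. Of 11 other CREB family genes none passed and 4 were under that p. The lowest p-values there were those of Creb3l2, a membrane-bound relative of CREB (0.56 ± 0.12, adjusted p = 0.0684), and Sik3, a kinase that holds CRTC coactivators in the cytoplasm (0.44 ± 0.11, adjusted p = 0.0950). Of 2 cyclic AMP efflux transporters none passed, and none was under that p. Without knockout replicate 1 or 2 none of the 103 genes passed, Ezr included.

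Known targets of cyclic AMP signalling had a lower median than the members. Of 22 measured, 3 fell, 1 rose and 18 did not pass, where 2.14% of all genes were called lower and 0.963% higher. The median log2 fold change was -0.37 against 0.07 for all genes. On 12 of them both knockout arrays lay below both wild-type arrays, against 22.4% of all genes, and on 4 both lay above, against 36.8%. Star and Cyp11a1, which bring cholesterol to the mitochondrion and start steroid synthesis there, fell (log2 fold changes -1.41 and -1.79), and are also Leydig cell markers. Without these and Cyp17a1, chosen for removal after the values were seen, the median of the other 19 targets was -0.12. Dusp1, a phosphatase of MAP kinases and an immediate early gene, measured 8.36 and 7.96 in the knockout and 9.09 and 9.01 in wild type (-0.89 ± 0.16, limma adjusted p = 0.0359). Ppargc1a, a coactivator of mitochondrial genes, rose, from 7.69 and 7.62 in wild type to 8.61 and 8.87 in the knockout (1.09 ± 0.13, adjusted p = 0.0115). The immediate early factors Nr4a1 and Fos did not pass, with differences of -0.53 ± 0.17 for Nr4a1 (adjusted p = 0.152) and -0.49 ± 0.14 for Fos (adjusted p = 0.129). Many stimuli besides cyclic AMP act on these targets.

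**Figure D5:**
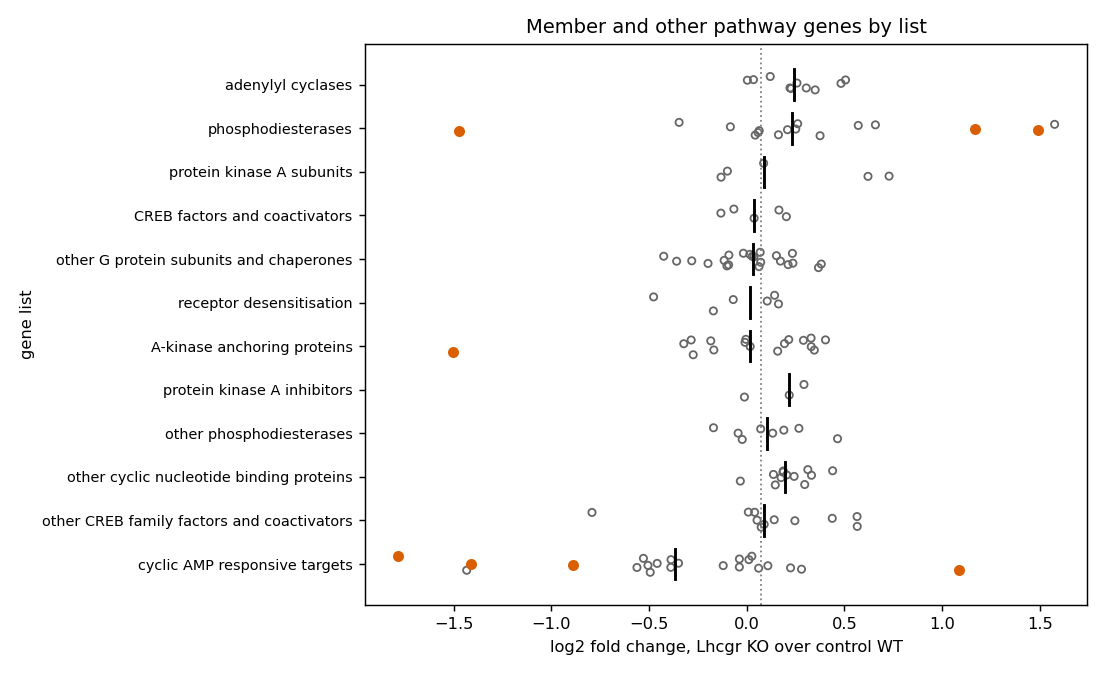
Log2 fold change (horizontal axis) of the members by role and of other pathway genes by list (vertical axis, lists with at least 3 measured genes), 1 point per gene, filled where the gene passed the test, with a black bar at each list's median and a dotted line at the median of all genes, 0.07. The targets lie lowest, with a median of -0.37, and the adenylyl cyclases and phosphodiesterases have medians of 0.24 and 0.23.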

How the data were processed

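Testis RNA was read as biotin-labelled sense-strand cDNA on whole-transcript GeneChips, per the labels' protocols. The deposited table gives 1 linear intensity per probe set and array, and the submitters' processing notes name the build mm9. How the authors summarised, background-corrected and normalized the intensity values is not given in the sources used. The lowest intensity is 16 on each array; if a constant was added, the folds of weak genes are understated.

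Of 28856 probe sets, 21789 carry 1 gene symbol, 1621 several and 5446 none listed. Symbols were checked by Entrez number against RefSeq genes of GRCm38.p6, where 21698 matched and 0 changed. Log2 intensities of 19938 genes were fitted with limma 3.58.1 in R 4.3.3 (lmFit, eBayes with a constant prior, no covariates). P-values are two-sided and Benjamini-Hochberg adjusted over all genes, threshold 0.05. The script was tested on simulated data. Same-numbered arrays did not deviate together (r = 0.02, across genes, which are not independent replicates).

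The members and lists were chosen with earlier results of these data known. The rule for naming took members past the threshold in any setting and, in each role, those with the lowest p-values and the highest mean. The remaining measured members are given too, by value or by range. Alternatives were quantile normalization, median centring, leaving out the lowest 25% of genes, averaging probe sets, eBayes with trend or a robust prior, adding 32 before log2, a threshold of 0.1, the replicate number as a block, and leaving out each array.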

Additional observations from a re-analysis of the deposited data

How the results depend on the processing

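Against 3 members called as reported, 5 were called after quantile normalization, 7 with a trended prior, 6 with a robust prior, 6 with 32 added before log2 and 8 at a threshold of 0.1. Of all genes 3.1% were called as reported and 3.17%, 3.91%, 4.04%, 3.71% and 6.24% in these alternatives. With 1 array left out the count ran from 0 to 8, and that of other pathway genes, 5 as reported, from 0 to 7. Pde3b, Pde8b and Pde10a passed in 11 of 13 alternatives, the exceptions being those without a knockout array. With the replicate block 4 members were called, Pde7b among them (limma adjusted p = 0.0370), and 2.87% of all genes. The labels do not say that replicate numbers pair the samples, and their deviations had r = 0.02. Signs turned in at least 1 alternative for 11 of the 38 members, none of them called and none with a change above 0.23 as reported. Gnal ran from -0.034 to 0.019 over the left-out arrays. Adcy9 had -0.015 with centred arrays and ran from -0.081 to 0.088 with an array left out. Pde4d had 0.043 as the mean of its probe sets and ran from -0.36 to 0.20. Adcy8, Pde1b and Pde11a were negative after quantile normalization (-0.10, -0.06 and -0.05) and in 2 fits with an array left out. Adcy2, Adcy6, Pde8a, Atf1 and Crtc2 turned in 1 such fit each. The cause of these shifts was not tested. Background signal was not measured, so low values such as those of Gnal, Adcy8 and Adcy10 are least certain.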
